A study of Mus musculus with 6 samples.

Results

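The WNT ligands, Frizzled receptors and secreted antagonists were taken as every non-control array probe whose gene name begins with Wnt, Fzd, Dkk or Sfrp followed by a digit. This gave 37 of the 28100 gene names on the array, read by 49 of 41174 non-control probes: 23 Wnt probes for 19 genes, 16 Fzd probes for 10 genes, 5 Dkk probes for 4 genes and 5 Sfrp probes for 4 genes. Of these, 39 probes for 32 genes were well above background in at least one dye channel on all 6 arrays, by the scanner software's own flag, and had a value on every array. The 39 comprised 19 Wnt, 14 Fzd, 2 Dkk and 4 Sfrp probes. None carried a saturation flag. The flag is permissive: 8 of the 314 negative control spots (2.55%) also passed, and 22 of the 39 probes were brighter than the 95th percentile of the negative controls in both dyes on all 6 arrays.

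The cells were dermal fibroblasts of C57BL/6 mice, cultured in DMEM with serum and exposed to interleukin-1 (IL-1), an inflammatory cytokine, at 20 ng/ml. RNA taken after 1, 2 or 4 h was hybridised on 2-colour arrays against RNA of untreated cells (0 h), which is both the control and the common reference. Each time point is 1 treated sample on a pair of arrays that exchange the dyes, with the treated RNA in Cy5 (red) on replicate 1 and in Cy3 (green) on replicate 2. The labels do not say which form of IL-1 was used, how many animals the cells came from, or whether the time points are separate cultures, so p-values measure only the spread between these 3 samples, which may be technical. The 3 samples are also 3 different times and not replicates of 1 condition. In the test of the mean, and in its SE, any change with time therefore counts as spread.

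WNT proteins are secreted, lipid-modified signals that bind Frizzled receptors on the cell surface. Together with the LRP co-receptors they stabilise β-catenin, or, through other co-receptors, they steer cell polarity and movement. Several Dickkopf (DKK) proteins can block the pathway at the LRP co-receptors. Secreted Frizzled-related proteins (SFRP) bind WNTs through a domain like that of Frizzled. In skin, WNT signalling to the dermis is known for its part in dermal development, hair follicle cycling and wound repair.

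IL-1 target genes responded at every time: Cxcl1, a neutrophil-attracting chemokine, was 73.9-fold above untreated at 1 h and 28.7-fold at 4 h. All 12 fibroblast markers examined were above the negative controls, 4 of them with saturated spots. Of 33 markers of other skin cell types, 24 passed the background flag, 14 were above the negative controls in both dyes on all arrays, and none of the 3 melanocyte markers passed. Among them Csf1r, Lyz2 and Myh11 rose by 0.09 to 0.13 in mean log2 ratio and Krt10 fell by 0.20. Other markers of the same cell types did not pass the test described below. These were Ptprc (-0.03), Cd68 (-0.001) and Adgre1 (-0.01), Krt5 (0.05), Krt14 (-0.004), Krt1 (-0.01) and Trp63 (0.05), and Rgs5 (0.03) and Des (0.04). By that test 23% of all probes passed in either direction. The part of such cells in the results below was not tested. Median signal was 121.8 to 127.5 in Cy3 and 124.3 to 137.7 in Cy5, against negative control medians of 96.3 to 104.4 and 68.4 to 74.1. The typical probe was thus not far above the negative controls, and the number of arrays and the signal over background limit the precision.

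Across 1, 2 and 4 h of IL-1, 8 of the 39 probes fell and 2 rose. Those that fell read the antagonist Dkk2, the receptors Fzd1, Fzd2 (2 probes), Fzd4 and Fzd7, and the ligands Wnt9a and Wnt5a, and those that rose read the ligands Wnt11 and Wnt10a. The mean log2 ratio of treated over untreated cells ranged from -0.48 for Dkk2 to 0.29 for Wnt11. No probe reached 0.5 in size in this fit, but this depends on the processing. With the scanner software's processed signals, Wnt9a (-0.64), Dkk2 (-0.56) and Wnt11 (0.55) did, as did Dkk2 with median centring (-0.58). The test was limma's moderated test of the mean over the 3 samples against 0, two-sided, with Benjamini-Hochberg adjustment over all 29445 probes kept and an adjusted p under 0.05. By the same test 12% of all probes fell (3520) and 11% rose (3245), so 8 of 39 (20.5%) lower and 2 of 39 (5.13%) higher are to be read against that background. The median over the 39 probes was -0.02 and over all probes 0.00, with a negative mean for 26 of 39 members (66.7%) and for 49.5% of all probes. With the scanner software's processed signals, 3 members were called lower and 3 higher (1358 lower and 1370 higher over all probes), with median centring in place of loess 12 and 2 (7480 and 1583), and without the 2 h sample 5 and 1 (866 and 930).

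**Figure D1:**
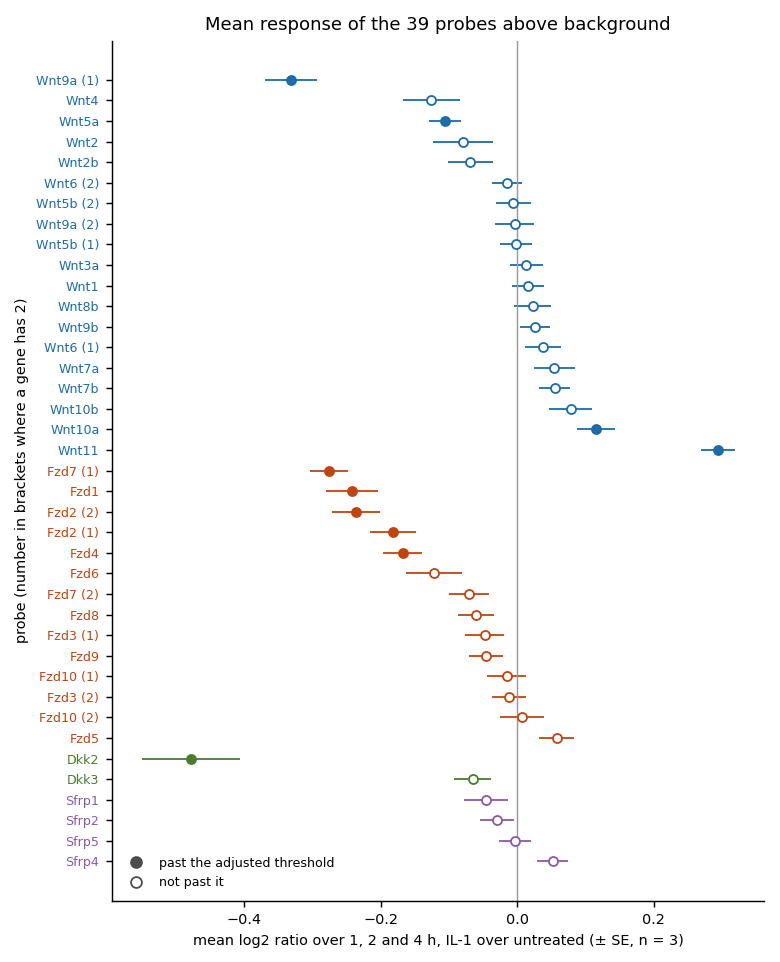
Mean log2 ratio of IL-1-treated over untreated cells across 1, 2 and 4 h for each of the 39 probes, grouped by family (horizontal axis, log2; bars, SE from limma with n = 3 samples). Filled points passed the adjusted threshold: 8 lie left of 0 and 2 right of it, and Dkk2 at -0.48 and Wnt11 at 0.29 are the extremes.

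Regions upstream of the genes that moved are shown so that a reader can look at the sequence beside the response. RefSeq (GRCm38.p6) windows of 250 bases before the transcription start were found for 6 of the 9 genes, in 7 windows because Wnt11 has 2 starts. The motifs searched on both strands were the NF-kB consensus, the AP-1 site TGANTCA and the TCF/LEF core CTTTGAA with its variant CTTTGAT, as well as CTTTGTA and its variant CTTTGTT, with no overlap between motifs found. NF-kB and AP-1 are factors that IL-1 activates, and TCF/LEF factors carry the β-catenin signal. The windows of 4 genes, those of the 2 lowest means, of the lowest Frizzled and of the highest mean, read as follows 5′ to 3′, with a TCF/LEF match on the opposite strand in capitals:
Dkk2, chr3:132085042-132085291, + strand: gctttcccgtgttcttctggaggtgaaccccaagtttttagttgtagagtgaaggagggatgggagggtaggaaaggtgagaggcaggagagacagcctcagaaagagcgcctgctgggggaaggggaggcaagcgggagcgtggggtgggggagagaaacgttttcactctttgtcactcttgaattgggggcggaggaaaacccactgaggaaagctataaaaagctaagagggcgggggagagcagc
Wnt9a, chr11:59306680-59306929, + strand: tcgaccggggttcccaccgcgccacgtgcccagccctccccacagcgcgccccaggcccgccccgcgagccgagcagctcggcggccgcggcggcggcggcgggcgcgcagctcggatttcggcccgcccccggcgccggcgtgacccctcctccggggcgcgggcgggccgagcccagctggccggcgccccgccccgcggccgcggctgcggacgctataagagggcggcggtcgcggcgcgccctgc
Fzd7, chr1:59481897-59482146, + strand: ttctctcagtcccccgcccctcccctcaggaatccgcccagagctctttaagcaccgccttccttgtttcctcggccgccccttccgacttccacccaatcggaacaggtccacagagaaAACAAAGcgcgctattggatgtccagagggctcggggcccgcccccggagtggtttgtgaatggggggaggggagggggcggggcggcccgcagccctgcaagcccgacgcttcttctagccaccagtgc
Wnt11, chr7:98834862-98835111, + strand: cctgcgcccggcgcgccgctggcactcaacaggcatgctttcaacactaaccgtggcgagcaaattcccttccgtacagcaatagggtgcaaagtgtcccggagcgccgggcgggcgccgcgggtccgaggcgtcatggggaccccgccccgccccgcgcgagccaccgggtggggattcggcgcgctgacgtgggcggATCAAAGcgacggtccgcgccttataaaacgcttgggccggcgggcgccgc
Fzd7 held the TCF/LEF letters at -130 to -124 from the start, and the first Wnt11 window held them at -51 to -45. No NF-kB or AP-1 match was found in the 7 windows. Of 32851 such windows in RefSeq, 14.8% held the TCF/LEF core, 7.25% the NF-kB consensus and 6.75% the AP-1 site. The windows differed in base composition, from 51.2% G and C for Fzd1 (chr5:4758217-4758466, - strand) to 84.4% for Wnt9a.

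Among the Frizzled receptors, 5 of 14 probes fell, 9 did not pass the test and none rose. Of all probes, 12% fell and 11% rose. A negative mean was seen for 12 of the 14 under each of the 5 ways of processing the signals. In the fit above, 49.5% of all probes had a negative mean. That share was not taken for the other ways of processing, which use the same 6 arrays. Median centring shifted the median of all probes by -0.03. The 14 probes read 10 genes, so they are not independent. The family's median was -0.07. Fzd1, Fzd2 and Fzd7 are close relatives within the family, and a probe for each was lower on all 6 arrays. The Fzd4 probe and a Fzd8 probe were so too, while a second Fzd7 probe was lower on 4 arrays. Of all probes, 10.5% were lower on all 6.

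The Fzd7 probe A_52_P552665 read -0.31 with the treated RNA in Cy5 and -0.35 with it in Cy3 after 1 h, then -0.27 and -0.26 after 2 h, then -0.23 on both arrays after 4 h. Both dye orientations thus gave nearly the same value at each time. Its normalised log2 level lay between 8.22 and 8.33 in the 6 untreated channels and between 7.94 and 8.10 in the 6 treated channels, with no overlap. How many of all probes separate in this way was not counted. Its mean was -0.28 ± 0.03 (SE, n = 3; 0.826-fold; limma adjusted p = 0.00222).

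The Fzd1 probe read -0.18 and -0.14 after 1 h (treated RNA in Cy5, then in Cy3), -0.39 and -0.31 after 2 h, then -0.20 and -0.24 after 4 h. Its lowest ratio was thus at 2 h in both orientations. The log2 levels were 9.22 to 9.43 untreated and 9.03 to 9.14 treated, again without overlap. The mean was -0.24 ± 0.04 (SE, n = 3; 0.846-fold; limma adjusted p = 0.00772), and with processed signals it did not pass (-0.27, adjusted p = 0.0565).

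Fzd2 was read by 2 probes that lie 1432 bases apart by the coordinates in the scanner files, for which the sources used here give no build, and both fell. The probe A_52_P129428 read -0.16 on both arrays after 1 h, -0.41 and -0.24 after 2 h, then -0.23 and -0.21 after 4 h, for a mean of -0.24 ± 0.03 (SE, n = 3; limma adjusted p = 0.00643). The probe A_51_P404077 read -0.17 and -0.01, then -0.30 and -0.18, then -0.28 and -0.16, for a mean of -0.18 ± 0.03 (limma adjusted p = 0.0136). Every one of these 12 ratios was below 0, and the second probe was lower with the treated RNA in Cy5 at every time. At 4 h the second probe's treated log2 levels of 10.242 to 10.434 overlapped the untreated 10.369 to 10.595. With processed signals the first probe's mean was -0.38 and the second's did not pass (-0.19, adjusted p = 0.0764), nor did the second pass without the 2 h sample (adjusted p = 0.0988) or without replicate 1, which leaves the arrays with treated RNA in Cy3 (-0.12, adjusted p = 0.0743).

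Fzd4, a receptor that also binds norrin, read -0.04 and -0.17 after 1 h, -0.12 and -0.30 after 2 h, then -0.18 and -0.20 after 4 h. All 6 ratios were negative, and the array with treated RNA in Cy3 was the lower at each time. Its treated levels at 2 and 4 h lay below all untreated channels, while those at 1 h fell within their range. The mean was -0.17 ± 0.03 (SE, n = 3; 0.890-fold; limma adjusted p = 0.00973). The call ended without the 2 h sample (adjusted p = 0.0829) and with processed signals, where the mean was -0.33 (adjusted p = 0.051).

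The other Frizzled probes did not pass the test. Fzd6, a receptor of planar cell polarity, had ratios of 0.00, -0.17 and -0.20 at 1, 2 and 4 h and a mean of -0.12 ± 0.04 (limma adjusted p = 0.0826). With the replicate number, here the dye orientation, kept as a block, its adjusted p was 0.0269. That fit counts the arrays of a pair, which carry the same RNAs, as separate samples, so its p-values can be too small. The second Fzd7 probe, A_51_P142107, lies 1825 bases from the first and had a mean of -0.07 ± 0.03 (limma adjusted p = 0.14), so the 2 Fzd7 probes disagree on the call. The means were 0.06 for Fzd5, -0.06 for Fzd8, -0.05 for Fzd9, -0.02 and 0.01 for the Fzd10 probes and -0.05 and -0.01 for the Fzd3 probes. Fzd8 was below 0 on all 6 arrays, by less than 0.01 on 2 of them.

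**Figure D2:**
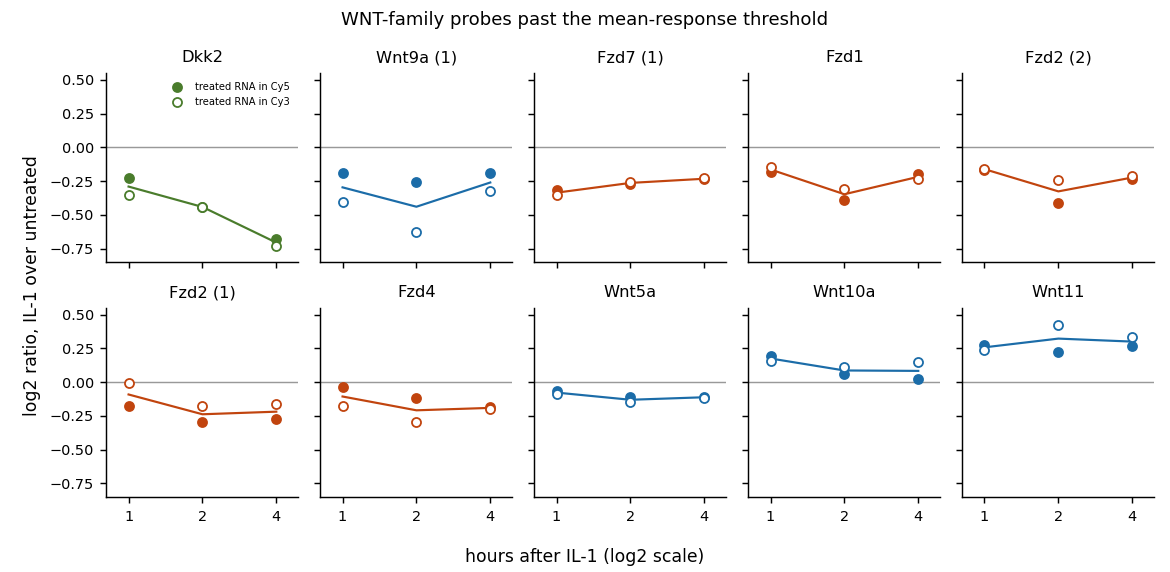
Log2 ratio of treated over untreated cells against hours of IL-1 for each of the 10 probes that passed the threshold, with 1 point per array (the symbols mark which dye carried the treated RNA) and a line through the mean of each pair. Dkk2 moves down from -0.29 at 1 h to -0.70 at 4 h, while the Fzd1 and Wnt9a points are lowest at 2 h.

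Among the secreted antagonists, Dkk2 fell and the other 5 probes measured did not pass the test. Dkk2, which binds the LRP co-receptors, read -0.23 and -0.35 after 1 h (treated RNA in Cy5, then in Cy3), -0.44 on both arrays after 2 h, then -0.68 and -0.73 after 4 h. Its log2 level was 8.88 to 8.97 in untreated channels, 8.60 to 8.65 at 1 h, 8.47 to 8.53 at 2 h and 8.19 to 8.27 at 4 h, so each later time lay below the one before without overlap. The mean was -0.48 ± 0.07 (SE, n = 3; 0.718-fold; limma adjusted p = 0.00687), and with processed signals it was -0.56 (adjusted p = 0.0588).

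At single times there is 1 treated sample and no test, so a rule of size was used: at least 1.5-fold in the same direction in both dye orientations. At 4 h Dkk2 was the member that met it, at 0.614-fold of the untreated level, against 0.0442% of all probes lower by this rule (13). No member met it in the higher direction at any time (0.363%, 0.37% and 0.316% of all probes at 1, 2 and 4 h) or in the lower direction at 1 or 2 h (0.0238% and 0.0509%). With a 2-fold rule no member was called at 4 h, nor with median centring, and with processed signals the Wnt9a probe A_51_P375453 was lower at 2 h, as it was when replicate 1 was left out.

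The change with time was tested as a slope on log2 hours, that is, per doubling of the time in IL-1. The Dkk2 slope was -0.21 (limma adjusted p = 0.0601) and did not pass, and no other member passed either, against 0.177% of all probes rising and 0.204% falling. At an unadjusted p under 0.05 the count was 4 of 39 members (10.3%) and 3072 of all 29445 probes, a similar share. The Dkk2 slope did pass with the replicate number as a block (adjusted p = 0.0147), a fit that counts the arrays of a pair as separate samples. It also passed without background correction (0.00507), with median centring (0.00714), with no filter (0.0445) and with the stricter filter on negative controls (0.0373). Over all 13 alternatives for this slope the adjusted p ran up to 0.529, the value with processed signals. Between 4 h and 1 h, Dkk2 differed by -0.45 with the treated RNA in Cy5 and by -0.38 with it in Cy3, short of 1.5-fold, as were all members (0.0747% of all probes higher, 0.163% lower).

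Dkk3, a divergent member of the DKK family, had a mean of -0.07 ± 0.03 (limma adjusted p = 0.139). The means of the SFRP probes were -0.05 for Sfrp1 (95% interval -0.12 to 0.03), -0.03 for Sfrp2 (-0.09 to 0.03), 0.05 for Sfrp4 (0.00 to 0.11) and 0.00 for Sfrp5 (-0.06 to 0.05). The family's median was -0.02. Sfrp1 read 0.02, -0.03 and -0.12 at 1, 2 and 4 h.

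Among the ligands, 2 of 19 probes rose, 2 fell and 15 did not pass, and the median was 0.01. Of all probes, 11% rose and 12% fell. Wnt11, a ligand best known for β-catenin-independent signalling, read 0.27 and 0.24 after 1 h, 0.22 and 0.42 after 2 h, then 0.27 and 0.34 after 4 h. It was higher on all 6 arrays and at a similar size at each time. Its log2 level was 6.66 to 6.97 in untreated channels, 6.90 to 7.11 at 1 h, where it overlapped them, and 7.10 to 7.21 at 2 and 4 h, where it did not. The mean was 0.29 ± 0.02 (SE, n = 3; 1.23-fold; limma adjusted p = 0.00138). It was 0.55 (1.47-fold) with processed signals, and it passed the threshold in all 16 alternatives tried.

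Wnt10a, a ligand needed for teeth, hair and other skin appendages, read 0.19 and 0.16 after 1 h, 0.06 and 0.12 after 2 h, then 0.02 and 0.15 after 4 h. It too was above 0 on all 6 arrays. Its log2 level was 6.52 to 6.58 at 1 h, above the untreated 6.22 to 6.42. At 2 h it overlapped that range (6.34 to 6.46), and at 4 h it lay within it (6.377 to 6.385). The mean was 0.12 ± 0.03 (SE, n = 3; 1.08-fold; limma adjusted p = 0.03). This probe was not brighter than the 95th percentile of the negative controls on every array, and its mean was 0.44 with processed signals. The call ended without the 1 h sample (adjusted p = 0.128), without the 2 h sample (0.113) and without replicate 2, which leaves the arrays with treated RNA in Cy5 (mean 0.09, adjusted p = 0.111).

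Wnt9a, a ligand of skeletal and joint development, fell by its probe A_51_P375453, which read -0.19 and -0.40 after 1 h, -0.25 and -0.62 after 2 h, then -0.19 and -0.33 after 4 h. The arrays with treated RNA in Cy3 gave the larger decrease at each time. Treated log2 levels of 6.65 to 6.94 lay below the untreated range of 6.97 to 7.27. The mean was -0.33 ± 0.04 (SE, n = 3; 0.795-fold; limma adjusted p = 0.00312). This probe was also not brighter than the 95th percentile of the negative controls on every array, with processed signals its mean was -0.64, and without replicate 2 it was -0.21. A second Wnt9a probe, A_52_P618971, lies 2185 bases away and had a mean of 0.00 ± 0.03 (limma adjusted p = 0.946). It was well above background in Cy3 on 3 of 6 arrays, so the gene has 1 probe that fell and 1 dimmer probe that did not pass.

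Wnt5a, the classic ligand of β-catenin-independent signalling, read -0.06 and -0.09 after 1 h, -0.11 and -0.15 after 2 h, then -0.11 and -0.12 after 4 h. The decrease was small and present on all 6 arrays. Treated log2 levels overlapped the untreated range of 6.94 to 7.44 at every time, and at 4 h they were 7.164 to 7.305. The mean was -0.11 ± 0.02 (SE, n = 3; 0.929-fold; limma adjusted p = 0.0235). It was -0.21 with processed signals (adjusted p = 0.0577), and the call ended without the 2 h sample (0.168) and without the 4 h sample (0.0563).

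The other 15 ligand probes had means between -0.13 and 0.08. Wnt4 read -0.01, -0.14 and -0.23 at 1, 2 and 4 h, for a mean of -0.13 ± 0.04 (limma adjusted p = 0.0822), and at 4 h its treated levels of 6.64 to 6.87 lay just below the untreated 6.88 to 7.05. With the dye orientation as a block, which counts the arrays of a pair as separate samples, its adjusted p was 0.0264. Wnt2 had a mean of -0.08, Wnt2b -0.07, Wnt1 0.02, Wnt3a 0.01, Wnt7a 0.05, Wnt7b 0.05, Wnt8b 0.02, Wnt9b 0.03, the Wnt5b probes 0.00 and -0.01, and the Wnt6 probes 0.04 and -0.02. Beside these values, the median half-distance between the 2 orientations at a time was 0.06, over the members and over all probes alike.

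For some members the sign of the ratio followed the dye. For 10 of 39 probes (25.6%, against 24.4% of all probes) the 2 orientations had opposite signs at all 3 times. Wnt10b, a β-catenin-activating ligand that restrains fat cell formation, averaged -0.16 with the treated RNA in Cy5 and 0.31 with it in Cy3. Its mean over both was 0.08 ± 0.03 (limma adjusted p = 0.126), and with processed signals it was 0.35 (adjusted p = 0.0375). Sfrp4 averaged -0.17 and 0.28 in the same order, and Fzd9 0.15 and -0.24. The other 7 were a Fzd3, a Wnt5b and a Wnt6 probe and those of Wnt1, Wnt2b, Wnt3a and Wnt8b. On all 6 arrays 9 probes were lower (23.1%, against 10.5% of all probes) and 2 were higher (5.13%, against 10.7%).

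**Figure D3:**
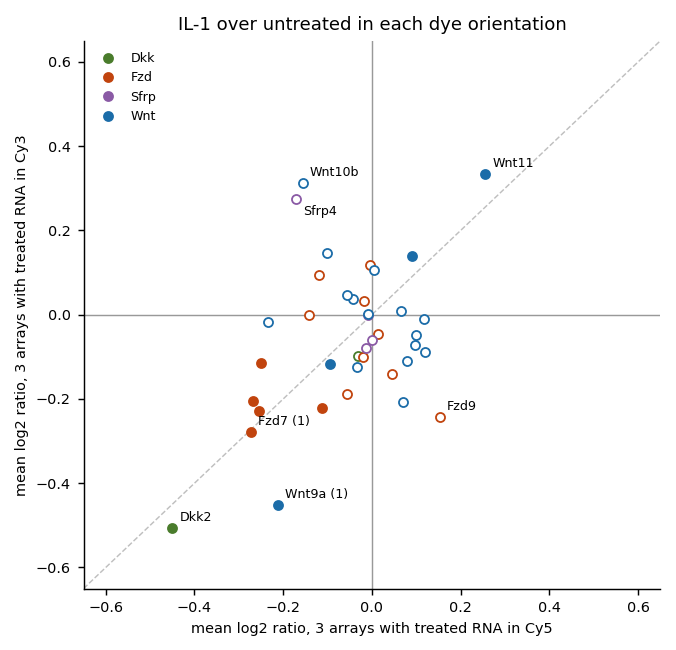
Mean log2 ratio of treated over untreated cells on the 3 arrays with the treated RNA in Cy5 (horizontal) against that on the 3 arrays with it in Cy3 (vertical) for the 39 probes, coloured by family, filled where the adjusted threshold was passed. The filled points lie in the quadrants where both orientations agree in sign, while Wnt10b, Sfrp4 and Fzd9 lie where they differ.

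The 10 probes past the threshold kept their sign in each of the 5 ways of processing compared, and their sizes differed. Between the values above and the processed signals, Wnt10a moved from 0.12 to 0.44, Wnt9a from -0.33 to -0.64 and Wnt11 from 0.29 to 0.55. Dkk2 moved from -0.48 to -0.56 and Fzd1 from -0.24 to -0.27.

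**Figure D4:**
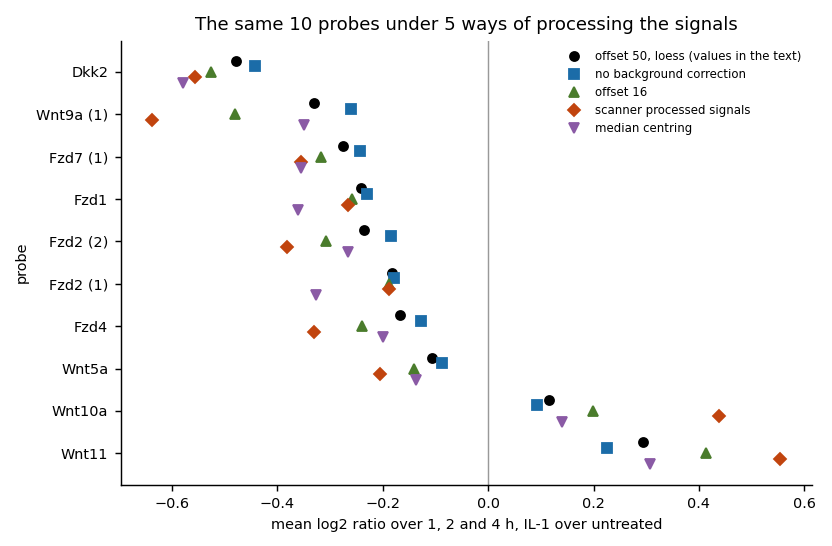
Mean log2 ratio over 1, 2 and 4 h (horizontal axis) of the 10 probes past the threshold under 5 ways of processing the signals (symbols), where Fzd2 (1) is A_51_P404077, Fzd2 (2) A_52_P129428, Fzd7 (1) A_52_P552665 and Wnt9a (1) A_51_P375453. No probe crosses 0, and Wnt10a has the widest relative spread, up to 0.44 with processed signals.

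The remaining 10 probes (Dkk1 with 2, Dkk4, Wnt16, Wnt3 with 2, Wnt8a, and the second probes of Fzd5, Fzd8 and Sfrp1) were not well above background in one dye on all arrays. Their log2 ratios on any array lay between -0.22 and 0.24. Dkk1, the founding member of the Dickkopf family, was well above background on 2 arrays in Cy3 and 5 in Cy5 by one probe, whose ratios were 0.02, 0.12 and -0.07 at 1, 2 and 4 h. The second Fzd5 probe passed on as many arrays, with 0.06, 0.10 and -0.08.

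The rest of the WNT pathway was described from a list of 70 genes, each by its brightest probe. Of 58 measured, 10 rose, 16 fell and 32 did not pass, and their median was 0.00, the same as over all probes. Against the 11% of all probes that rose and the 12% that fell, these are counts and not a test of the list. Dimmer probes of Csnk1a1 (-0.16, -0.16, 0.18 and 0.28), Csnk1d (0.22 and 0.25) and Vangl1 (-0.14) passed the threshold though the brightest did not. The counts were 2 and 3 with processed signals, 5 and 25 with median centring, and 2 and 3 without the 2 h sample.

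Among co-receptors and alternative receptors, 4 of 7 fell (Lrp6, Ryk, Ptk7 and Lgr5) and Ror2, a receptor for WNT5A, rose by its brighter probe (0.18 ± 0.03; limma adjusted p = 0.0132), while a second probe read 0.06 (adjusted p = 0.184). Ryk likewise fell by its brighter probe (-0.09, limma adjusted p = 0.0336), with -0.04 by a second (adjusted p = 0.326). Lgr5, which binds R-spondins, had ratios of -0.08, -0.30 and -0.64 at 1, 2 and 4 h (mean -0.34 ± 0.09; limma adjusted p = 0.0487) and was not brighter than the 95th percentile of the negative controls. Of 11 genes of WNT secretion and other secreted modulators, 3 fell (Wls, Rspo2 and Cthrc1) and none rose. Wls, which carries WNT proteins to the cell surface, had a mean of -0.14.

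Of 28 intracellular genes, 6 fell and 5 rose. Prickle1, a planar polarity protein, had ratios of -0.58, -0.49 and -0.41 at 1, 2 and 4 h (mean -0.49 ± 0.04; limma adjusted p = 0.000984). Daam1, a formin that acts below Dishevelled, had 0.16, 0.56 and 0.38 (mean 0.37 ± 0.07; limma adjusted p = 0.0138). Its other probes gave 0.19 and 0.02. The transcription factors Tcf7l2 (-0.29 ± 0.06; limma adjusted p = 0.0238) and Tcf7l1 (-0.24 ± 0.03; limma adjusted p = 0.00534) fell, though the other 2 Tcf7l2 probes read 0.01 and 0.00. The co-activator Pygo2 rose by 0.18 ± 0.03 (limma adjusted p = 0.013), which did not pass with median centring (0.05, adjusted p = 0.427). Ctnnb1, which encodes β-catenin, passed with a mean of 0.09 but turned to -0.06 with median centring (adjusted p = 0.241). The sign of its ratio followed the dye. With the treated RNA in Cy5 it read 0.32, 0.34 and 0.33 at 1, 2 and 4 h, and in Cy3 -0.11, -0.24 and -0.10.

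Among 12 usual β-catenin targets, 4 rose and 3 fell, and Axin2, Sp5 and Tnfrsf19 were not well above background. Fosl1, an AP-1 subunit, had 0.91, 0.48 and 0.36 at 1, 2 and 4 h (mean 0.58 ± 0.10; limma adjusted p = 0.0094). Ccn4 (0.28 ± 0.03; adjusted p = 0.00237) and Ccn5 (0.19 ± 0.04; adjusted p = 0.0143), both secreted matrix-associated proteins, rose, though Ccn5 did not pass with median centring (0.02, adjusted p = 0.715). With the treated RNA in Cy5, Ccn5 read -0.02, -0.02 and 0.28 at 1, 2 and 4 h, against 0.25, 0.35 and 0.28 in Cy3. Ccnd1 rose by 0.09, and turned to -0.06 with median centring (adjusted p = 0.154). Twist1, a mesenchymal transcription factor, had -0.11, -0.33 and -0.55 (mean -0.33 ± 0.08; limma adjusted p = 0.0257), and Apcdd1, a membrane inhibitor of WNT signalling, had a mean of -0.26 ± 0.04 (limma adjusted p = 0.0055) by one probe and -0.03 by a dimmer one. Lef1, Nkd1 and Myc did not pass, at 0.01, 0.03 and -0.03.

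**Figure D5:**
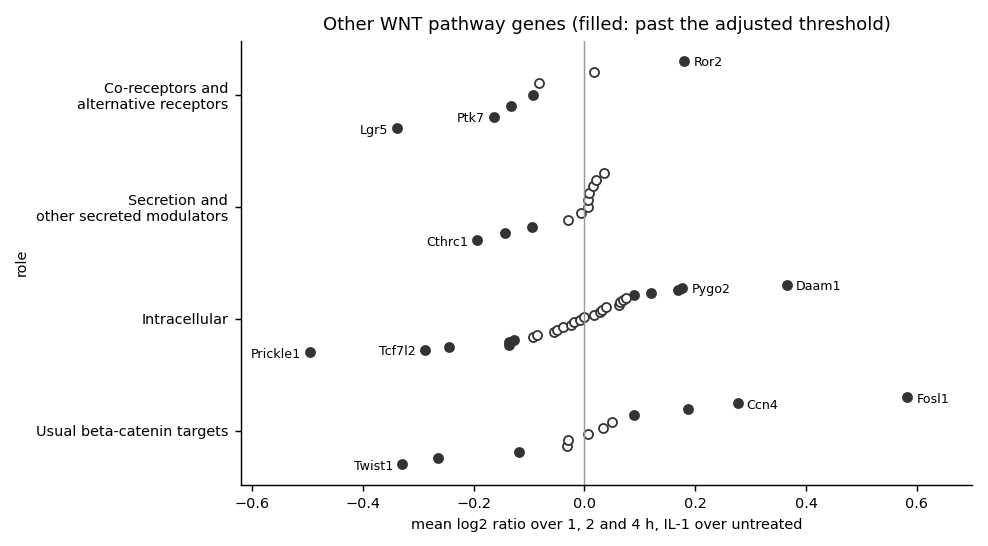
Mean log2 ratio over 1, 2 and 4 h (horizontal axis) of the 58 other WNT pathway genes measured, by role (vertical), each by its brightest probe, filled where the adjusted threshold was passed. Prickle1 at -0.49 and Fosl1 at 0.58 are the ends of the range, and genes past the threshold lie on both sides of 0.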

How the data were processed

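The scanner text files hold spot intensity per dye, which the authors extracted with Agilent Feature Extraction 7.5.1, per the file headers, with the software's processed intensity (spatially detrended, linear and lowess dye normalization) and its background flags. The authors' deposited table of log2 ratios equals, spot by spot (within 0.001), the processed log2 ratio of treated over untreated cells on its dye-swap partner array, and this held for 100% of spots. Its columns are thus exchanged within each pair and run treated over untreated, with medians between -0.0325 and 0.0311. It was not used for the results.

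From the deposited mean intensities, background was corrected by normexp (offset 50), arrays were normalised within each array by loess (controls at weight 0), outlier-flagged spots were left out and spots of a probe averaged. Log levels for single channels were scaled by Aquantile. The pair of arrays of a time point was averaged to 1 sample with the swapped sign turned. limma 3.58.1 in R 4.3.3 fitted the mean over 3 samples against 0 (2 residual degrees of freedom) and a slope on log2 time (1 residual degree of freedom), on all 29445 probes with Benjamini-Hochberg adjustment; 50 of 29495 probes passing the background flag lacked a value and were left out. The ratio against 0 leaves out the spread of the untreated RNA, and the sources used here do not say whether 1 extract served all arrays. Procedures were tested on simulated data with independent normal errors. The simulation held no dye effect and no shared untreated RNA, so it cannot show how the tests behave under those.

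Members and gene lists were chosen with earlier results of these data known. Every member probe above background is named; of the other pathway genes, the 6 furthest in each direction past the threshold are named with values, and others given by role were chosen after their values were seen. Same-numbered arrays, which share a dye orientation, deviated together from their time means (correlation 0.776 to 0.849), so the number marks the dye and the block removes it. Each slide held 1 array. Alternatives were other background corrections, processed signals, median centring, other filters, the brightest probe per gene, a trended robust variance, the replicate block, and leaving out a replicate or a time. The filter on negative controls was chosen after seeing the data. The result of 1 cell type marker is not reported here.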

Additional observations from a re-analysis of the deposited data

Results flagged for a closer look

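Of the 39 probes above background, 2 dim ones had both arrays of one time on one side of 0 and both arrays of another time on the other. The Fzd10 probe A_51_P233367 had a mean log2 ratio of -0.0712 at 2 h and 0.0358 at 4 h, and the Wnt9a probe A_52_P618971 had -0.0648 at 2 h and 0.0426 at 4 h. Among the probes not above background, a Dkk1 and a Wnt3 probe did so too. The difference between the times was not tested, and the pattern was not counted over all probes. These sizes are close to the median half-distance between the dye orientations, 0.0586 over the members and 0.0621 over all probes.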

How the results depend on the processing

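The 10 calls of the mean response kept their direction in every alternative run. The count of higher members, 2 in the report, was 1 without the 1 h sample, 1 without the 2 h sample, 1 with the filter on negative controls, and 4 to 6 when a replicate (a dye orientation) was left out. The count of lower members, 8 in the report, was 3 with processed signals and 5 without the 2 h sample. The count of members with a falling slope, 0 in the report, was 1 without background correction, with median centring, with no filter, with the filter on negative controls and with the replicate block. This was Dkk2. The replicate block is fitted on the 6 arrays and so counts the arrays of a pair as separate samples. With the replicate block Fzd6 (-0.12, adjusted p = 0.0269) and Wnt4 (-0.13, adjusted p = 0.0264) also became lower, and it changed no other call of a member's mean. By the size rule, the count of members lower at 2 h, 0 in the report, was 1 with processed signals and 0 to 1 when a replicate was left out, and the count lower at 4 h, 1 in the report, was 0 with median centring and 0 at 2-fold. Of the other pathway genes, 10 rose and 16 fell in the report, against 2 and 3 with processed signals, 5 and 25 with median centring, and 2 and 3 without the 2 h sample. Without replicate 2, which leaves only arrays with the treated RNA in Cy5, the sign turned for Fzd9 (0.1525, against -0.2435 without replicate 1), Sfrp4 (-0.1713 against 0.275) and Wnt10b (-0.1562 against 0.312), each past the threshold in that fit. Other members turned sign in an alternative only where neither that fit nor the one in the report passed. Apart from the filters and the samples left out, whose own construction changes what is tested, the cause was not tested. The slope could not be fitted without a time sample, and the tests do not apply to single times. Median centring made Dkk3, Fzd6, Sfrp1 and Wnt4 lower as well, and shifted the median of all probes by -0.03. The precision is limited by the 3 samples and by typical signals not far above the negative controls.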
